A study of Mus musculus with 24 samples.

Results

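This report describes what the small molecule KL001 did to gene expression in mouse embryonic fibroblasts (MEFs) of wild type genotype that carried a control siRNA (siCTRL) and were exposed to Dexa, named as in the sample labels, where the abbreviation is not spelled out. It covers 6 of the 24 libraries of the series, chosen by their labels alone: 3 with siCTRL, KL001 and Dexa against 3 with siCTRL, the vehicle DMSO and Dexa, over all genes. The other 18 libraries hold the same cells without Dexa, with siCop1 (an siRNA against Cop1, listed in the count table as Rfwd2), or both, again with DMSO or KL001 and 3 libraries a group. The labels state no dose, exposure time or hour of collection, and nothing in the labels says whether replicates came from separate cultures, so the p-values measure only the spread between these libraries, which may be technical.

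As background, cryptochromes (CRY1 and CRY2) are repressors of the circadian clock. With PERIOD proteins they hold back the activators CLOCK and BMAL1 (gene Arntl), which bind E-box sequences at Per, Cry, Nr1d1 and Dbp. KL001 is a carbazole compound that binds cryptochromes and slows their degradation. Glucocorticoids induce Per1 directly and are widely used to set the clocks of cultured fibroblasts to a common phase.

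With KL001, Cry1 itself fell 3.35-fold, together with Per2, Npas2, Arntl and Dbp, while Nr1d1, Nr1d2 and Ciart rose. Outside the clock, nearly the whole set of sterol and fatty acid synthesis genes rose by a small amount, 17 of 28 cell cycle genes, among them the Mcm helicase subunits, rose slightly, and 14 of 28 collagen genes and 11 of 22 elastic fibre genes, Eln among them, fell. In all, 1560 of 14772 genes tested passed edgeR's quasi-likelihood test at a Benjamini-Hochberg adjusted p below 0.05 (10.6%), 736 higher (4.98%) and 824 lower (5.58%). Genes that passed are called changed here. Most changes were small: the median absolute log2 fold change of the called genes was 0.21, 981 were below 0.25, and 33 (0.223% of genes tested) reached 2-fold, 6 of them higher and 27 lower. The 3 KL001 libraries lay wholly above or below the 3 DMSO libraries for 1536 of the 1560, as they did for 27.9% of all genes tested.

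The 6 libraries held 23056672 to 25998783 counts, and the common biological coefficient of variation over all 24 libraries was 3.71%. In a principal component analysis of the 6, the largest axis of variation (39%) set both replicate 2 libraries apart. They lay at 31.4 (DMSO) and 24.4 (KL001), the others at -32.8 to -3.93. Neither this axis nor the next (22.4%) separated KL001 from DMSO. Fibroblast markers were abundant, with summed levels of 53294 to 54150 CPM (counts scaled to library size) with DMSO and 46868 to 49007 CPM with KL001. Of those 10 markers 5 were lower with KL001 (Col1a1, Col1a2, Col3a1, Lum and Pdgfra) and none was higher, so the marker list moves with the matrix result given further on. The defining fibroblast markers Dcn and Lum were nearly absent, at most 74 and 22 counts in a library. Both replicate 2 libraries contained heart muscle transcripts: Myh6, the cardiac myosin heavy chain, had 683 counts in the DMSO library and 144 in the KL001 library, against 0 or 1 in the other 4. The 9 heart markers summed to 0.837 to 116 CPM with DMSO and 1.03 to 29.9 CPM with KL001, and none was called. Epithelial transcripts were in all 6 libraries, so they were not confined to the replicate 2 pair. Krt15 had 184, 105 and 90 counts with DMSO and 135, 183 and 36 with KL001. Squamous epithelium markers summed to 13 to 22.1 CPM with DMSO and 9.38 to 26.5 CPM with KL001. Of the markers of other cell types only Tnnt3, of skeletal muscle, was called (lower). Myog and Myod1 had 0 counts, but other skeletal muscle markers were present. Ckm had 147 counts in the DMSO and 45 in the KL001 replicate 2 library and 0 in the others, and Acta1 had 49 to 80 in every library. Leaving out the replicate 2 pair gave 924 calls, 859 of them among the 1560, and ended the calls of Lum and Tnnt3 (adjusted p 0.118 and 0.123). The part of these transcripts in the results was not tested. In bulk RNA, fewer cells of a type and less RNA per cell cannot be told apart.

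Among the clock repressors, Cry1 stood at 33.2, 33.1 and 34.6 CPM in the DMSO libraries and at 10.1, 10.1 and 9.88 CPM in the KL001 libraries. The groups were far apart, and the KL001 libraries lay within a narrow band. The log2 fold change was -1.74 (SE 0.061, adjusted p 4.11e-18, edgeR), a level 3.35-fold lower and the smallest adjusted p of all genes tested. Cry2, the second cryptochrome, fell by 0.39 on the log2 scale. Per2, a partner of the cryptochromes, measured 39.5, 42.2 and 41.6 CPM with DMSO and 24.6, 21.5 and 24 CPM with KL001, a log2 change of -0.81 (SE 0.073, adjusted p 9.24e-09). Its paralogs did not pass the test. Per1 was level at 189 to 195 CPM against 193 to 197 CPM (log2 0.02), and Per3 had a log2 change of -0.14 (adjusted p 0.194). Bhlhe40 measured 38.6, 39 and 38.9 CPM with DMSO and 35.7, 35.9 and 34.2 CPM with KL001 (log2 -0.14). Bhlhe40 did not pass here (adjusted p 0.0577) but was called lower in the 3 other comparisons of KL001 with DMSO (adjusted p 0.0276 or below).

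The nuclear receptors that repress Arntl moved the other way. Nr1d1 (REV-ERB alpha) measured 20.2, 21.3 and 20.5 CPM with DMSO and 41.6, 38.2 and 40.9 CPM with KL001. Every KL001 library was above every DMSO library, and the log2 fold change was 0.96 (SE 0.051, adjusted p 5.7e-14). Nr1d2 (REV-ERB beta) rose from 42.8, 48.1 and 50.5 CPM to 64.9, 64.3 and 61.9 CPM, a log2 change of 0.44. Ciart, which encodes the repressor CHRONO, measured 10.2, 8.51 and 9.05 CPM with DMSO and 11.6, 13.7 and 12.1 CPM with KL001. Its log2 change of 0.42 passed the test (adjusted p 0.00312), but without the replicate 2 pair it was 0.30 with an adjusted p of 0.114.

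Of the 7 activator genes 2 fell. Npas2, which can stand in for CLOCK, measured 2.22, 2.46 and 2.75 CPM with DMSO and 1.16, 1.23 and 0.823 CPM with KL001 (log2 -1.21, SE 0.179, adjusted p 2.65e-05). Arntl measured 29.8, 30.5 and 32.4 CPM with DMSO and 22.3, 21.1 and 22.7 CPM with KL001 (log2 -0.49, SE 0.065, adjusted p 7.24e-06). Neither gene's groups overlapped. Clock, Arntl2, Rora and Rorb did not pass, and Rorb was below 1 CPM in every library. Of the 6 output genes 4 fell. Dbp, a PAR-domain transcription factor driven by E-boxes, went from 32, 30.3 and 31.8 CPM to 21.6, 19.5 and 19.5 CPM (log2 -0.64, SE 0.070, adjusted p 2.42e-07), and its relative Tef from a range of 282 to 292 CPM to one of 239 to 245 CPM (log2 -0.25). Hlf (log2 -0.52, adjusted p 0.0305) and Usp2 (log2 -0.21, adjusted p 0.0178) passed more narrowly, and neither passed without the replicate 2 pair (adjusted p 0.235 and 0.102). The output genes Nfil3 and Wee1 did not pass (log2 -0.07 and -0.11).

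None of 14 genes for clock protein turnover, among them Fbxl21, Btrc, Csnk1d, Csnk1e, Gsk3b, Cul4a, Ddb1, Det1 and Rfwd2, was called, with log2 changes from -0.05 to 0.23. A list of 14 would hold few calls at the share of all genes tested (10.6%), so this count cannot tell it from the background. In all, 12 of the 23 activator, repressor and output genes were called, against 10.6% of all genes tested.

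**Figure D1:**
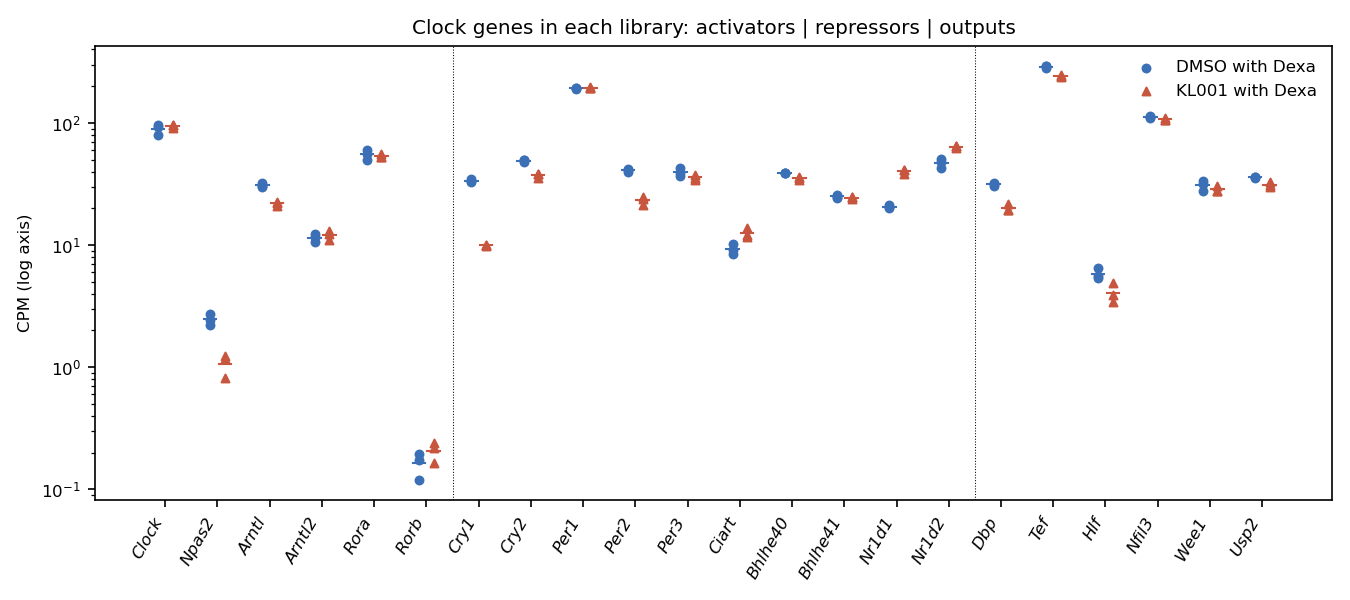
Level of 22 clock genes in CPM (log axis) in the 3 DMSO (circles) and 3 KL001 (triangles) libraries of siCTRL cells with Dexa, with short lines at the group means and dotted lines between activators, repressors and outputs. Cry1, Per2, Npas2, Arntl and Dbp are lower with KL001, Nr1d1 and Nr1d2 are higher, and Per1 is level.

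Promoter sequence from RefSeq (GRCm38.p6, the 250 bases before the annotated start) was available for 19 of those 23 clock genes and for 10917 of the genes tested. The canonical E-box CACGTG, which is its own reverse complement, was present in 5 of the 19 (26.3%), against 9.85% of the 10917. The 5 are Cry1 and Tef, which were lower, Ciart, which was higher, and Per1 and Bhlhe41, which did not pass, so the match was found in front of genes that moved in both directions and of genes that were not called. The windows of Nr1d1, Dbp and Cry2 held no match, and sequence outside the 250 bases was not searched. Over all called genes the E-box was in 11.7% of the promoters of higher genes and 8.25% of those of lower genes. The Cry1 (chr10:85185055-85185304, minus strand) and Ciart (chr3:95882229-95882478, minus strand) windows are shown because these genes moved in opposite directions, with E-boxes in capitals. The Cry1 match begins 60 bases before the start, and those of Ciart 116, 58 and 44 bases before it.
Cry1: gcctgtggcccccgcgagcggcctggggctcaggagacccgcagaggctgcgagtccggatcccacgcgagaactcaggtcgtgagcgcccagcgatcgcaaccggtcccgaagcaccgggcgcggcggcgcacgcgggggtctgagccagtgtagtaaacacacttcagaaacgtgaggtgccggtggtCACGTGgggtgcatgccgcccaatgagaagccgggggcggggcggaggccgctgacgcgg
Ciart: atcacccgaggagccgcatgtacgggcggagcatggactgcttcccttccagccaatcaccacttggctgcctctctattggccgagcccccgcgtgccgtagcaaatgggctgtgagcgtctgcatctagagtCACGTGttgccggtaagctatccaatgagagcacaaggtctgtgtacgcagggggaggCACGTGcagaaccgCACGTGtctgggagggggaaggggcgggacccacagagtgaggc

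Sterol and fatty acid synthesis genes had the highest share of calls of the 23 lists. All 23 lists were chosen with earlier results of these data known, so their counts are descriptions. Cells make cholesterol from acetyl-CoA through the mevalonate pathway, and the transcription factors SREBP-2 and SREBP-1 switch on these enzymes when membrane sterol is low. Of 26 members 25 were higher with KL001 and none was lower, beside 4.98% of all genes tested higher. The list median was 0.28 on the log2 scale against -0.001 for all genes tested. Hmgcs1, an early enzyme of the mevalonate pathway, measured 301, 331 and 340 CPM with DMSO and 406, 398 and 405 CPM with KL001 (log2 0.31, SE 0.039, adjusted p 2.3e-06). The groups were apart, although the DMSO libraries differed among themselves more than the KL001 libraries.

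Insig1, which holds SREBP in the endoplasmic reticulum and is itself an SREBP target, went from 85.7, 87.5 and 87 CPM to 113, 107 and 107 CPM (log2 0.33, SE 0.034, adjusted p 7.83e-08). Idi1, isopentenyl diphosphate isomerase, had the highest change of the list, from 2.84, 2.59 and 3.15 CPM to 4.59, 4.39 and 4.73 CPM (log2 0.67, SE 0.135, adjusted p 0.00121). Among fatty acid genes, Fasn rose by 0.30, Acaca by 0.21 and Scd2 by 0.14. Srebf2 rose by 0.16, whereas Srebf1 was the member that did not pass (log2 0.05, adjusted p 0.339). From 24 to 25 members were called when any 1 library was left out.

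**Figure D2:**
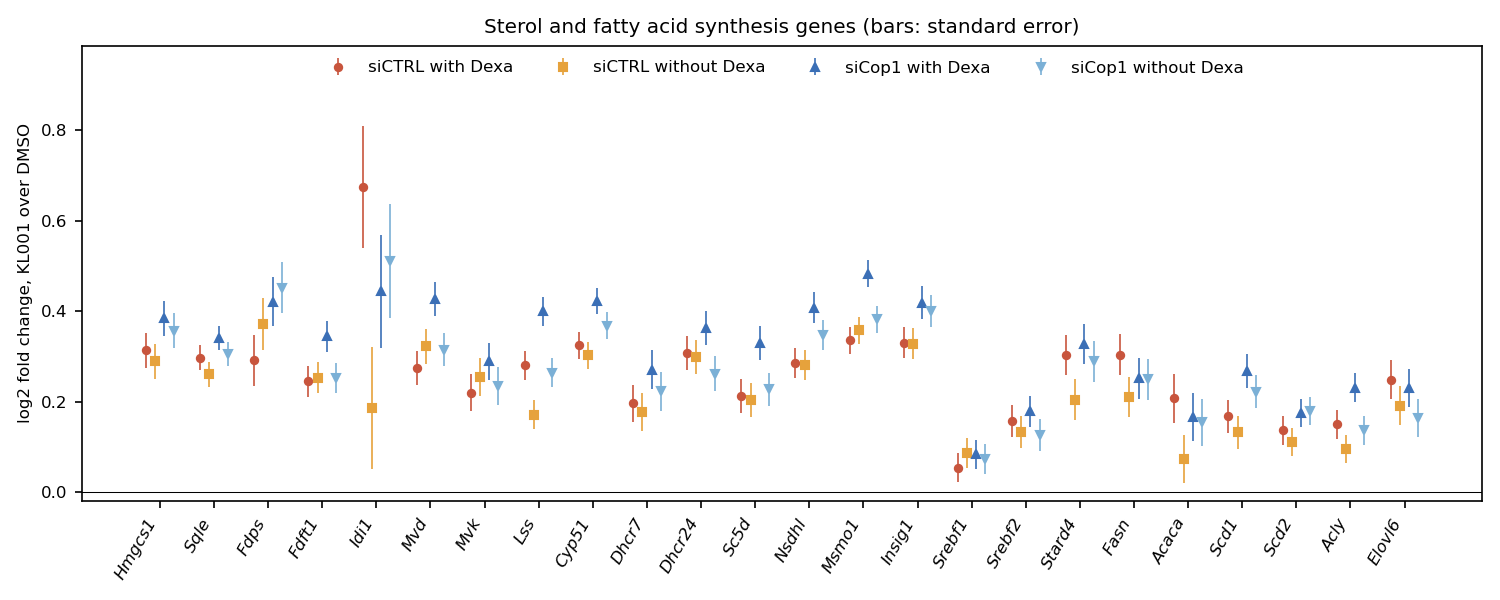
Log2 fold change of KL001 over DMSO with its standard error (bars) for 24 sterol and fatty acid synthesis genes in the 4 settings of siRNA and Dexa. The points lie above 0 in all 4 settings, and the medians of the whole list were 0.28, 0.21, 0.33 and 0.26.

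The same direction was measured in the 3 settings that share no library with this comparison: 22 of the 26 were higher without Dexa in siCTRL cells, 24 with Dexa in siCop1 cells and 24 without Dexa in siCop1 cells, with none lower. Of all genes tested 3.22%, 2.5% and 1.77% were called higher in those settings. A sterol response element, TCACNCCAC on either strand, was found in 1 of 17 matched promoters of the list, that of Hmgcs1, against 1.2% of all matched genes. The window (chr13:119690101-119690350, plus strand) is shown with the element in capitals, 137 bases before the start.
Hmgcs1: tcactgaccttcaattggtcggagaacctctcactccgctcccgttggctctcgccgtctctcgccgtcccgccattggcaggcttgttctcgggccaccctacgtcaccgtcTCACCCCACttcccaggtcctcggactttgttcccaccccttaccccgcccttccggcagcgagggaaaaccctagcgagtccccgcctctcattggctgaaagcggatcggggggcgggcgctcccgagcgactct

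Fibroblasts secrete collagens, elastic fibre proteins and small proteoglycans, which are cross-linked outside the cell. Of 28 collagen genes tested 14 were lower and 1, Col18a1, was higher, with a list median of -0.20. The shares over all genes tested were 5.58% lower and 4.98% higher. Col3a1, the fibrillar collagen of elastic tissues, measured 4222, 4244 and 4157 CPM with DMSO and 3248, 3017 and 2907 CPM with KL001 (log2 -0.46, SE 0.036, adjusted p 1.12e-09). The 2 groups were clearly separate. Col1a1, the main chain of type I collagen, changed less, from 20932 to 21459 CPM with DMSO to 18594 to 19489 CPM with KL001 (log2 -0.17, adjusted p 0.0177), and lost its call without the replicate 2 pair (adjusted p 0.142). The basement membrane collagens Col4a1 and Col4a2 did not pass (log2 0.02 and -0.03). The collagen count was 8 without the replicate 2 pair and 9 without KL001 replicate 3.

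Of 22 elastic fibre genes 11 were lower and 3 (Fbln2, Loxl4 and Emilin2) higher, against 5.58% and 4.98% of all genes tested. Eln, which encodes elastin, went from 23.5, 20.1 and 18.1 CPM to 13.6, 11.7 and 10.8 CPM (log2 -0.77, SE 0.089, adjusted p 5.9e-07). Mfap4, a microfibril-associated glycoprotein, went from 5.99, 5.96 and 4.18 CPM to 2.39, 3.16 and 2.22 CPM (log2 -1.06, SE 0.158, adjusted p 3.1e-05). The groups of both genes were separate. The lysyl oxidase Lox, which cross-links collagen and elastin, fell by 0.20, while Loxl4, of the same enzyme family, rose by 0.28. Of 25 matrix proteases and inhibitors 8 were lower, again beside 5.58% of all genes tested. Among them were Adamts17 (log2 -1.20), Mmp3 (log2 -0.50) and Mmp2 (log2 -0.26), while the inhibitor Timp3 was higher (log2 0.23). Mmp3 was not called without the replicate 2 pair (adjusted p 0.0667).

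Of 15 genes of the BMP and Id list 7 fell, beside 5.58% of all genes tested. They included the ligands Bmp2 (log2 -0.66) and Bmp4 (log2 -0.24) and the BMP antagonists Grem1 (log2 -0.39) and Chrd (log2 -0.42), while Id1, Id2 and Id3 did not pass. Igfbp3, an IGF-binding protein, went from 22.7, 19.5 and 18.3 CPM to 8.82, 9.44 and 8.68 CPM (log2 -1.17, SE 0.098, adjusted p 2.72e-09), and it was the largest change of its list of 10, of which 3 were lower and none higher. Small leucine-rich proteoglycans, with related leucine-rich repeat genes such as Islr, and secreted Wnt modulators are outside those lists. Both groups were formed after their values had been seen. Their counts (8 of 12 and 5 of 9 lower, none higher) likewise only describe them. Fmod, the proteoglycan fibromodulin, went from 79.5, 73.9 and 75.3 CPM to 43.1, 39.1 and 41.2 CPM (log2 -0.89, SE 0.042, adjusted p 6.73e-15). Sfrp2, a secreted Wnt-binding protein, went from 922, 890 and 850 CPM to 589, 541 and 553 CPM (log2 -0.66, SE 0.033, adjusted p 2.01e-14). Neither gene's groups overlapped, and both were among the 8 smallest adjusted p-values.

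**Figure D3:**
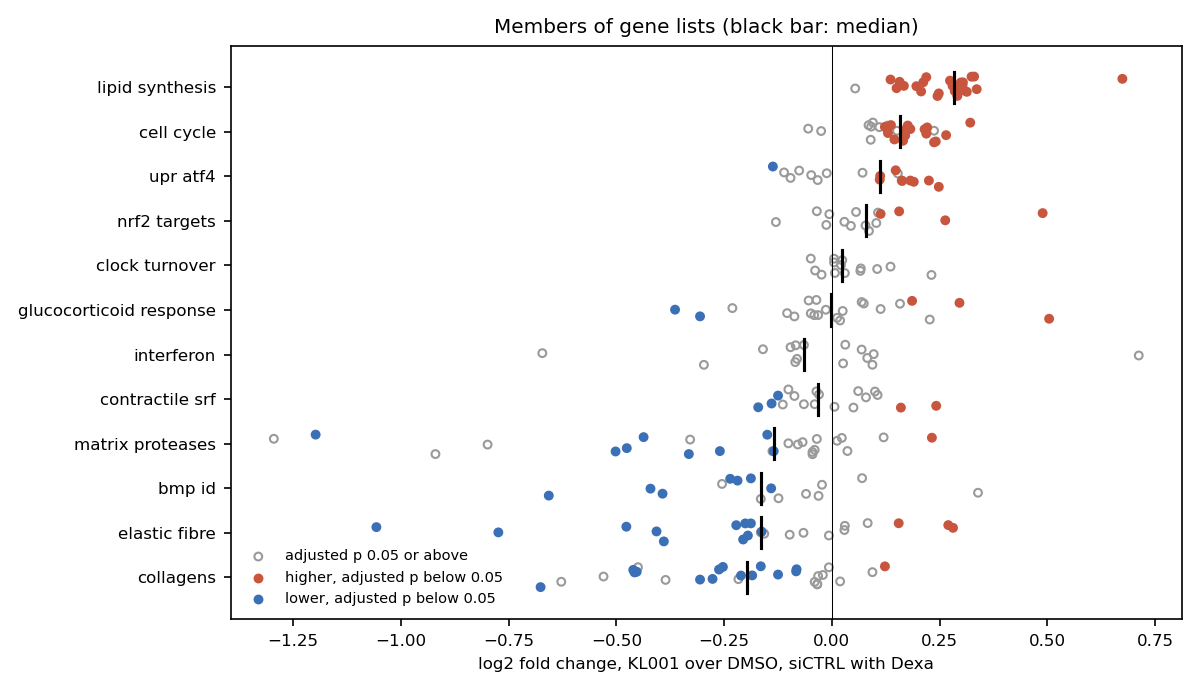
Log2 fold change of KL001 over DMSO in siCTRL cells with Dexa for the tested members of 12 gene lists, 1 point per gene with a random vertical offset, filled where the adjusted p was below 0.05, and a black bar at each list's median. Lipid synthesis genes lie to the right (median 0.28), collagens to the left (median -0.20), and clock turnover and interferon genes have no filled point.

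Of 28 cell cycle genes 17 were higher by small amounts and none was lower, with a median of 0.16, beside 4.98% of all genes tested higher. All of Mcm2 to Mcm7, the subunits of the replicative helicase, passed, as did Pcna, Rrm1, Rrm2, Cdt1 and Ccne1. Mcm5 measured 91.7, 92.2 and 90.8 CPM with DMSO and 101, 107 and 116 CPM with KL001 (log2 0.24, SE 0.042, adjusted p 2.34e-04). The mitotic genes Ccnb1, Cdk1, Plk1, Aurka, Aurkb and Cdc20 did not pass (log2 -0.06 to 0.15). This list depended on single libraries: 9 members were called without KL001 replicate 3, 11 without DMSO replicate 1 and 11 without the replicate 2 pair. Its median was 0.13 without Dexa in siCTRL cells, 0.05 with Dexa and -0.00 without Dexa in siCop1 cells, where no member was called. However, no member's difference between siCTRL and siCop1 passed its own test (smallest adjusted p 0.257). Ccnd1, cyclin D1, is not in this list, and its difference with Dexa did pass (log2 -0.25, siCop1 minus siCTRL, adjusted p 0.0234 in edgeR).

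The counts of higher genes in this paragraph stand beside 4.98% of all genes tested higher. In the stress list of 18 genes 9 were higher, and these belong to the ATF4 arm, which raises amino acid synthesis and uptake. They were Atf4, Chac1, Trib3, Asns, Sesn2, Psat1, Phgdh, Shmt2 and Slc7a5. The count was 6 to 8 when 1 library was left out and 6 to 11 under the other alternatives. Psat1, of serine synthesis, went from 482, 483 and 499 CPM to 564, 577 and 597 CPM (log2 0.25, SE 0.026, adjusted p 7.48e-08). The endoplasmic reticulum chaperones Hspa5 and Hsp90b1 did not pass (log2 -0.03 and -0.05), and Xbp1 was lower (log2 -0.14). Of 15 NRF2 target genes 4 were higher, led by the cystine transporter Slc7a11, which went from 29.6, 35.6 and 36.6 CPM to 50.5, 46.3 and 45.9 CPM (log2 0.49). Hmox1 and Nqo1, the usual NRF2 markers, did not pass (log2 0.04 and -0.04). None of 15 interferon genes and none of 12 ETS and AP-1 factors was called, beside 10.6% of all genes tested called in either direction. Of 12 NF-kB and cytokine genes 1 was called (8.33%). It was Csf1, at a log2 change of 0.09, which did not pass without the replicate 2 pair (adjusted p 0.121). Lists this short would hold few calls at the share of all genes, so these counts cannot tell the lists from the background. The uncalled interferon genes had log2 changes from -0.67 to 0.71.

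Cyp26b1, the enzyme that degrades retinoic acid, had the highest change of the higher genes named by rule. It measured 15.5, 18.1 and 18.6 CPM with DMSO and 34.5, 36.3 and 38.4 CPM with KL001, 2.1-fold higher (log2 1.07, SE 0.064, adjusted p 1.37e-12). That rule itself required groups that did not overlap. In the retinoic acid list of 13 tested genes, Rdh11 was also higher (log2 0.17), Crabp1, Crabp2 and Dhrs3 were lower (log2 -0.18, -0.25 and -0.22), and the receptors Rara, Rarg, Rxra and Rxrb did not pass. The calls of Crabp1 and Crabp2 were lost without the replicate 2 pair (adjusted p 0.113 and 0.0987).

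Among called genes with a mean of at least 1 CPM and groups that did not overlap, unnamed gene models aside, the other genes with the highest rises were Nr1d1, Serpinb9b (log2 0.86), Mir99ahg (log2 0.80), Gfra1 (log2 0.77), Idi1, Ccl9 (log2 0.63), Pappa2 (log2 0.61), Ccdc171 (log2 0.58), Pik3r5 (log2 0.56), Nptx1 (log2 0.53) and Scn3a (log2 0.52). Gfra1, a GDNF co-receptor, went from 5.29, 4.74 and 4.82 CPM to 8.5, 8.25 and 8.64 CPM. Without the replicate 2 pair Mir99ahg, Ccl9, Pappa2, Ccdc171 and Nptx1 did not pass (adjusted p 0.0789, 0.122, 0.0769, 0.123 and 0.0573). By the same rule the genes lower with KL001, beside Cry1 and Npas2, included Adamts17, Igfbp3, Gprc5c (log2 -1.11), Ppp1r1b (log2 -1.10), Sparcl1 (log2 -1.11), Mfap4, Fam198a (log2 -1.06), Cxcl15 (log2 -1.03) and Penk (log2 -1.01). Penk, the enkephalin precursor, measured 275, 240 and 234 CPM with DMSO and 135, 124 and 111 CPM with KL001. Ppp1r1b did not pass without the replicate 2 pair (adjusted p 0.121).

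Of 22 classical glucocorticoid targets 17 did not pass, 3 were higher and 2 lower, beside 10.6% called of all genes tested. The 5 calls became 3 without KL001 replicate 3 and 8 after correction for the length and GC content of transcripts. Fkbp5, a co-chaperone of the glucocorticoid receptor, measured 714 to 727 CPM with DMSO and 695 to 715 CPM with KL001 (log2 -0.03, adjusted p 0.571), and Sgk1 had a log2 change of 0.01. Tsc22d3, which encodes the anti-inflammatory protein GILZ, fell from 681, 659 and 648 CPM to 558, 528 and 522 CPM (log2 -0.31, SE 0.028, adjusted p 8.78e-09), and Cebpd fell by 0.36. Angptl4, an inhibitor of lipoprotein lipase, rose from 26.7, 23.7 and 25.4 CPM to 35.9, 37.2 and 34.6 CPM (log2 0.50, SE 0.053, adjusted p 1.15e-07), and Mt2 and Dusp1 rose by 0.30 and 0.19. Without KL001 replicate 3 Mt2 did not pass (adjusted p 0.0511). In siCop1 DMSO cells, which share no library with this comparison, 330 genes were at least 2-fold higher with Dexa and 81 at least 2-fold lower (together 2.78% of genes tested). Of the 330 KL001 raised 11 (3.33%) and lowered 40 (12.1%), with a median of -0.037 (-0.085 without Dexa). Of the 81 none was raised and 9 were lowered, with a median of -0.130 (-0.095 without Dexa). Of all genes tested 4.98% were raised and 5.58% lowered. Over all 1778 genes called higher with Dexa in siCop1 cells, KL001 raised 8.04% and lowered 11.4% (median -0.015), and over the 1718 called lower it raised 7.22% and lowered 10.4% (median 0.002).

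Whether the effect of KL001 differed with Dexa was tested as an interaction in siCTRL cells. No gene (0%) passed in edgeR's quasi-likelihood test (smallest adjusted p 0.0995), 888 had an unadjusted p below 0.05, DESeq2 called 2, and 133 were called when genes of low count were not filtered out, 6 of them outside the filter. The median standard error of this term over the 1560 called genes was 0.067, beside a median absolute KL001 change of 0.21 in the same genes. Nr1d1 had a log2 change of 0.96 with and 0.66 without Dexa (difference 0.30, SE 0.069, adjusted p 0.225), and Per2 of -0.81 and -1.27 (difference 0.46, SE 0.127, adjusted p 0.444). Per1 had a log2 change of 0.02 with and -0.20 without Dexa (difference 0.22, SE 0.050, adjusted p 0.269), and Cry1 of -1.74 and -1.97.

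Without Dexa, 694 of the 736 higher genes (94.3%) and 792 of the 824 lower genes (96.1%) had the same sign, and 268 and 346 of them were called the same way, where 3.22% of all genes tested were called higher and 3.51% lower. These counts rest on 994 calls without Dexa in the fit of all libraries, and a fit of only the groups compared gave 225. Their median log2 changes were 0.18 and -0.25 with Dexa, where they were chosen, and 0.11 and -0.15 without. Across all genes the rank correlation of the log2 changes was 0.40 with the setting without Dexa, a description over 14772 genes that are not independent. In siCop1 cells 2.97% of genes tested were called lower with Dexa and 2.32% without. In all 4 settings 266 genes were called in the same direction, 111 higher and 155 lower, among them Cry1, Npas2, Fmod, Islr and Penk on the lower side and Cyp26b1, Nr1d1, Gfra1, Angptl4 and Slc7a11 on the higher side.

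**Figure D4:**
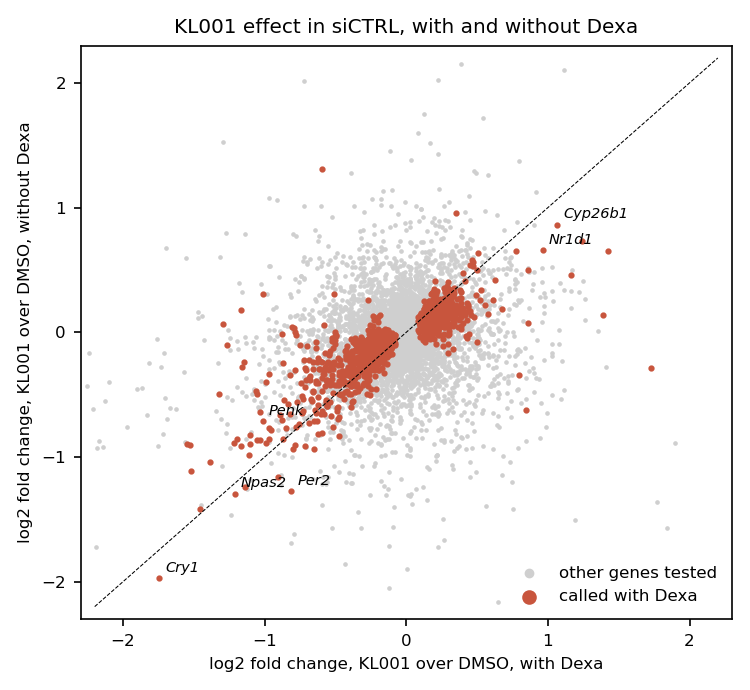
Log2 fold change of KL001 over DMSO in siCTRL cells with Dexa (x axis) and without Dexa (y axis) for each gene tested, with the genes called with Dexa in red, a dashed line of equal change, and 21 genes that were not called outside the axes. Cry1 lies at -1.74 and -1.97, Cyp26b1 at 1.07 and 0.86.

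The difference between siCTRL and siCop1 cells with Dexa passed for 10 genes (0.0677% of genes tested). Of these, Hmga2, a chromatin protein of proliferating fibroblasts, and Ccnd1, cyclin D1, rose with KL001 in siCTRL cells (log2 0.26 and 0.24) and had log2 changes of -0.01 in siCop1 cells. Grem1 had a log2 change of -0.39 in siCTRL and 0.06 in siCop1 cells. Grem1 and Hmga2 passed under every alternative run for them. The count was 5 when replicate number entered the model as a block, 24 with DESeq2 and 59 without the filter on low counts, and 1023 genes had an unadjusted p below 0.05.

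**Figure D5:**
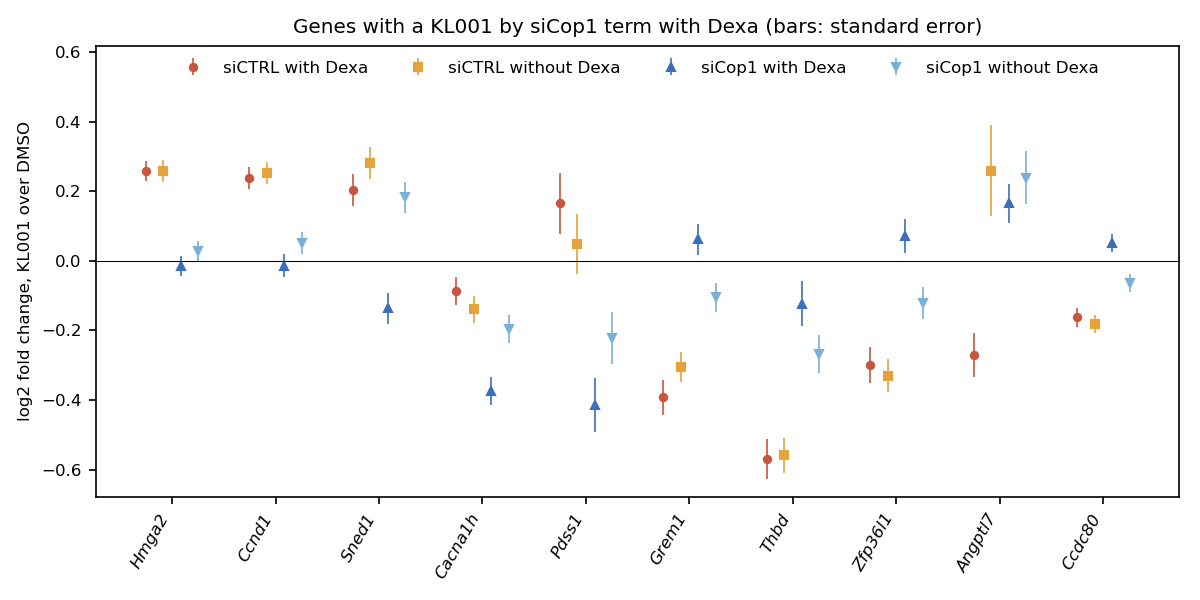
Log2 fold change of KL001 over DMSO with its standard error (bars) in the 4 settings for the 10 genes whose KL001 effect with Dexa differed between siCTRL and siCop1 cells. Grem1 is at -0.39 in siCTRL and 0.06 in siCop1 cells with Dexa, Hmga2 at 0.26 and -0.01.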

How the data were processed

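Whole-transcriptome RNA-seq libraries (stranded poly(A) mRNA, per the labels' protocols) were analysed from the authors' deposited table of raw counts per gene for 24 libraries. The submitters' processing notes name bcl2fastq 1.8.4, STAR 2.4.5a, featureCounts from Subread 1.4.6-p3, DESeq2 and Picard 1.126 with GRCm38 and mm10, without roles. No source states whether counting used strand, so overlapping antisense genes cannot be told apart. The deposited normalized table was not used.

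Libraries were grouped by their titles. Of 47480 genes, 14772 passed filterByExpr (minimum count 10, minimum total 15). One edgeR 4.0.16 quasi-likelihood model (R 4.3.3, TMM scaling, robust) with 1 mean for each of 8 groups was fitted to all 24 libraries, two-sided, with Benjamini-Hochberg adjustment over all genes tested and a threshold of 0.05. CPM values are TMM-scaled and not per length, so levels are not compared between genes. Standard errors were derived from the F statistic. The script was tested on simulated data.

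The gene lists, members and tests were chosen with earlier results of these data known. Named genes were all clock list members, the 12 higher and 12 lower called genes with the largest change (mean of at least 1 CPM, groups not overlapping, unnamed gene models skipped), the 8 smallest adjusted p-values, at most 4 called members of every other list and at most 5 genes per interaction and sign; further list members were named after their values were seen. A few genes these rules name are not reported here. Same-numbered DMSO and KL001 libraries deviated together (correlations 0.20, 0.41 and 0.28). The main model did not use this pairing, so its p-values ignore it. The numbers, which come from the titles, were used only in the replicate block and in leaving out libraries. Replicate libraries differed beyond counting noise (chi-square per degree of freedom 1.96 to 5.95). Alternatives were RLE and upper quartile scaling, no filter, DESeq2 1.42.0, a replicate block, only the groups compared, each library left out and, chosen after seeing the data, leaving out the replicate 2 pair and removing each library's trend with transcript length and GC content (GENCODE vM21, 96.8% of genes matched).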

Additional observations from a re-analysis of the deposited data

Results flagged for a closer look

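For 10 genes the effect of KL001 with Dexa differed between siCop1 and siCTRL cells by the interaction term in edgeR (siCop1 minus siCTRL, log2). The term was 0.46 for Grem1 (adjusted p 0.00379), 0.21 for Ccdc80 (adjusted p 0.0142), 0.45 for Thbd (adjusted p 0.0384), 0.37 for Zfp36l1 (adjusted p 0.0384) and 0.44 for Angptl7 (adjusted p 0.0409). All 5 were lower with KL001 in siCTRL cells, with log2 changes of -0.39, -0.16, -0.57, -0.30 and -0.27, and none passed in siCop1 cells. The term was -0.27 for Hmga2 (adjusted p 0.00379), -0.25 for Ccnd1 (adjusted p 0.0234), -0.34 for Sned1 (adjusted p 0.0384), -0.29 for Cacna1h (adjusted p 0.0384) and -0.58 for Pdss1 (adjusted p 0.0409). Hmga2, Ccnd1 and Sned1 were higher in siCTRL cells (Sned1 not without the replicate 2 pair, adjusted p 0.0905), whereas Cacna1h and Pdss1 passed in siCop1 cells, where they were lower (log2 -0.38 and -0.42).

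Grem1 and Hmga2 passed in all 18 alternatives run for each. Ccdc80 lost its call in 4 of 18, Ccnd1 in 8, Angptl7 in 9, Cacna1h and Sned1 in 10, Zfp36l1 in 11 and Thbd in 12 of 18, and Pdss1 in 12 of 17, most of them fits without 1 library. With the replicate number as a block Cacna1h, Pdss1, Sned1, Thbd and Zfp36l1 did not pass (adjusted p 0.0519 to 0.0641).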

How the results depend on the processing

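Of 100 called genes followed, 69 kept call and direction in all alternatives, 31 lost the call in at least 1 and 0 changed sign. With the replicate number as a block, 1535 genes were called for KL001 (1560 without), and the siCop1 term had 5 calls; among the other called genes followed, the block removed only Actg2. Leaving out 1 library gave 928 to 1416 calls (381 to 700 higher, 536 to 716 lower), fewest without DMSO replicate 1 and next without KL001 replicate 3 (962). It gave 9 to 14 collagens, 9 to 16 cell cycle genes, 3 to 5 glucocorticoid targets, 0 to 3 Dexa terms and 2 to 10 siCop1 terms. Leaving out the replicate 2 pair gave 924 calls (441 higher, 483 lower), 8 collagens and 11 cell cycle genes. Removing the length and GC trend gave 2320 calls (1205 higher, 1115 lower), 1437 of them among the 1560, and 8 glucocorticoid targets. Fitting only the groups compared gave 1247 calls for the main comparison, beside 1560 in the joint fit, and DESeq2 gave 1407. The fit of only the groups compared gave 225 calls for siCTRL without Dexa (994 in the joint fit). It gave 1435 for siCop1 with Dexa (807) and 950 for siCop1 without Dexa (604). The Dexa term had 2 calls with DESeq2 and 133 without the filter, the siCop1 term 24 and 59. The cause was not tested.

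Signs changed only for uncalled clock genes, with main values near 0 except Fbxl21 (0.23). Upper quartile scaling gave -0.009 for Csnk1d, -0.011 for Cul4a and -0.010 for Det1. Without the replicate 2 pair Det1 was -0.018 and Gsk3b 0.045. With the length and GC trend removed Btrc was -0.025, Csnk1e 0.002, Cul4a -0.000 and Dda1 0.003. Leaving out 1 library gave -0.001 to 0.046 for Btrc, -0.002 to 0.015 for Csnk1d, -0.018 to 0.021 for Cul4a, -0.030 to 0.035 for Det1, -0.011 to 0.421 for Fbxl21, -0.105 to 0.018 for Gsk3b and -0.125 to 0.024 for Rora. Standard errors were 0.179 for Npas2, of low count, and 0.061 for Cry1.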

Other observations

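Protein synthesis genes outside the lists of the report were grouped after their values had been seen, so their counts are a description. Of 18 cytoplasmic tRNA synthetases 14 were higher with KL001 and none was lower (median log2 0.11), with Vars at 0.22 and Iars at 0.17. The shares over all genes tested were 4.98% higher and 5.58% lower. Of 16 ribosome biogenesis factors 8 were higher and none lower (median 0.18), among them Dkc1 (log2 0.22) and Nolc1 (log2 0.20). In contrast, 1 of 83 ribosomal protein genes was higher and none lower, and of 77 respiratory chain genes 1 was lower and none higher.

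Of 15 glycolysis genes 5 were higher, led by hexokinase Hk2 (log2 0.40), with Slc2a1 at 0.15, and Pfkm was lower (log2 -0.14). Again 4.98% of all genes tested were higher and 5.58% lower. None of 7 cholesterol efflux genes passed, including Abca1 (log2 -0.14, adjusted p 0.367 in edgeR), beside 10.6% of all genes tested called. A list this short would hold few calls at that share, so the count cannot tell it from the background.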
